A study of Mus musculus with 6 samples.

Results

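miR-191 and miR-425 are made from a pair of neighbouring hairpins on mouse chromosome 9, and each hairpin gives a 5p and a 3p mature arm. The 4 arms (mmu-miR-191-5p, mmu-miR-191-3p, mmu-miR-425-5p and mmu-miR-425-3p) were taken by name from a table of 1907 mature microRNAs in mouse liver, 716 of them with reads. All 4 passed the filter on low values (3 or more libraries of the 6 with 4 or more reads), as 437 microRNAs of the table did. The livers came from male mice of mixed background, 12 weeks old per the labels. The regular diet was granulated chow alone (3 mice), and the soy diet mixed 75% of that chow with 25% soy bean powder (3 mice), each given over 4 weeks. Each mouse gave 1 small RNA library, so the comparison asked whether soy in the chow changes the level of a microRNA in whole liver. In such bulk tissue fewer cells of a type and less RNA per cell cannot be told apart.

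A microRNA hairpin is cut out of a longer transcript and trimmed to a short duplex, and an Argonaute protein keeps mostly a single strand of it, the guide. The other strand, the passenger, is mostly degraded. The seed near the 5′ end of the guide pairs with messenger RNAs and lowers their stability or translation. miR-191-5p is found in many tissues and has been used in human samples as a reference for RT-qPCR, and miR-425-5p represses the atrial natriuretic peptide gene NPPA in human cells. In human breast cancer cells the cluster is under the control of the estrogen receptor, to which isoflavones of soy can bind.

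The mature arms are shown because their seeds set what each can pair with. They are RefSeq sequences on GRCm38.p6, written 5′ to 3′ with the seed (bases 2 to 8) in capitals, and all 4 members were matched by name.
miR-191-5p: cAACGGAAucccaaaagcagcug
miR-191-3p: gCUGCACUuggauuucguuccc
miR-425-5p: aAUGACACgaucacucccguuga
miR-425-3p: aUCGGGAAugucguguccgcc
miR-489-3p, not a member: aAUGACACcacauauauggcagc

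The 4 arms have 4 different seeds, so neither the hairpins nor the arms of a hairpin form a seed family. Among 1738 mouse mature microRNAs of the reference, 0 others carry the seed of miR-191-5p, miR-191-3p or miR-425-3p. The seed of miR-425-5p is shared with 1 other, miR-489-3p, made on chromosome 6. miR-489-3p had 0 reads in all 6 libraries, which allows up to 0.235 to 0.524 CPM (3 reads of a library's total, for counting error only), so of these carriers of the seed only miR-425-5p had reads. The arms are 23, 22, 23 and 21 bases long in the order above, with a GC content of 52.2%, 54.5%, 47.8% and 61.9%.

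The hairpins are shown with both mature arms in capitals, since the reads fell very unequally on the arms.
Mir191, chr9:108568319-108568392, plus strand: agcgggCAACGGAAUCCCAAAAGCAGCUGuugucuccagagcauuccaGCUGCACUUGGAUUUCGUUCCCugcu
Mir425, chr9:108568777-108568861, plus strand: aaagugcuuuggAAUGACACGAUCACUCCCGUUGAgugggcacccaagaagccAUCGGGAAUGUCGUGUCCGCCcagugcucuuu

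The hairpins lie 384 bases apart on the same strand, and the annotations differ on the gene around them. RefSeq places both inside the protein-coding gene Dalrd3 (chr9:108567484-108572773). GENCODE M21 starts Dalrd3 further downstream (chr9:108569886-108572774), 1024 bases past Mir425, and puts both hairpins in a long noncoding RNA, 4833445I07Rik (chr9:108567533-108569174). There they are exonic in 1 transcript, and in the other Mir191 is intronic and Mir425 lies beyond the last exon. GENCODE also lists a microRNA gene, Gm24083, on the opposite strand over Mir191 (chr9:108568295-108568414), and how the counting treated strand is not given in the sources used here. These positions describe the annotations and not the authors' mapping.

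The arms covered a wide range of levels, with miR-191-5p far above the rest. miR-191-5p ranked 13 of the 437 filtered microRNAs by its mean over the 6 libraries, 18730 CPM (counts per 1e6 reads of the TMM-scaled library size). miR-425-5p ranked 73 at 306.4 CPM, miR-191-3p ranked 198 at 13.66 CPM and miR-425-3p ranked 236 at 7.30 CPM. The ranges of miR-191-5p, miR-425-5p and the pair of 3p arms were separate over all libraries, while the 3p arms overlapped. miR-191-3p had more reads than miR-425-3p in 5 of 6 libraries, at a ratio of 0.729 to 4.40. All of these levels are of reads, and the amount of each arm in the tissue was not measured.

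In the order of levels, miR-191-5p stood among microRNAs whose ranges over the libraries mostly overlapped its own. miR-143-3p, a microRNA of smooth muscle and other mesenchymal cells, had a mean level of 20280 CPM and miR-30d-5p one of 18810 CPM, and miR-126a-5p, an endothelial microRNA, followed at 16750 CPM. The ranges of these 3 overlapped that of miR-191-5p, and the range of miR-30c-5p, next below at 10970 CPM, did not. Around miR-425-5p, the levels of miR-146b-5p (328.8 CPM), miR-181c-5p (316.2 CPM), miR-1839-5p (292.1 CPM) and miR-23b-3p (275.9 CPM) all overlapped its own.

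Together the 4 arms made up 1.83% ± 0.33 (SD, n = 3) of all microRNA reads in regular and 1.97% ± 0.317 (SD, n = 3) in soy livers. By library the share was 2.184%, 1.531% and 1.777% in regular and 2.331%, 1.728% and 1.857% in soy. The groups overlapped, and regular replicate 1 and soy replicate 1 were the highest of each. miR-191-5p alone was 97.78% to 98.74% of these reads, so the sum is close to a measure of that arm.

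**Figure D1:**
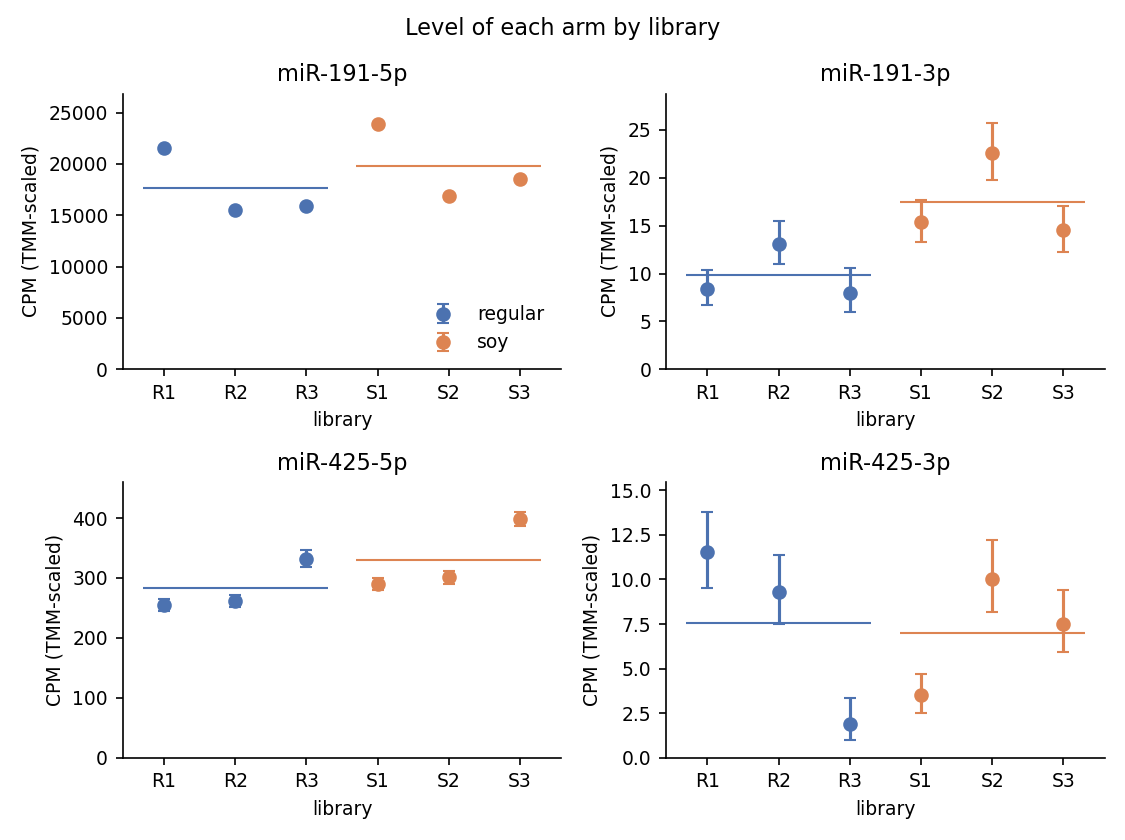
Level of each arm in CPM (TMM-scaled, linear axes from 0) in the 3 regular (R1 to R3) and 3 soy (S1 to S3) libraries, with exact Poisson 95% intervals of the count as bars and the group mean as a line. Soy libraries lie above all regular ones only for miR-191-3p, at 14.52 to 22.59 against 8.00 to 13.09 CPM, and the groups overlap for the other arms.

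miR-191-5p, the abundant arm of its hairpin, differed between the diets by less than the spread between mice. Its reads were 220838, 155192 and 99664 in the regular and 293725, 170025 and 184776 in the soy libraries, from totals of 5727546 to 12762916 reads. Its level was 21590, 15510 and 15950 CPM in regular and 23890, 16920 and 18510 CPM in soy livers. A single library was high in each group, replicate 1 in both, and the groups overlapped. The means were 17700 ± 3390 CPM in regular and 19800 ± 3650 CPM in soy (SD, n = 3), a log2 fold change of 0.16 ± 0.18 (SE) with a 95% interval of -0.25 to 0.57. It did not pass edgeR's quasi-likelihood test (adjusted p = 0.982 by Benjamini-Hochberg over 437 microRNAs). The interval reaches from 0.842-fold to 1.48-fold, so changes of that size could not be told from none with these mice. The value was 0.003 without soy replicate 1 and 0.426 without regular replicate 1, the libraries in which this arm was highest.

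miR-425-5p, the abundant arm of the other hairpin, had 2612, 2620 and 2076 reads in regular and 3563, 3023 and 3975 reads in soy libraries. Its level was 255.3, 261.9 and 332.2 CPM in regular and 289.8, 300.8 and 398.2 CPM in soy livers. Replicate 3 was the high library of each group here, and regular replicate 3 stood above 2 of the soy libraries. The means were 283 ± 42.6 and 330 ± 59.6 CPM (SD, n = 3), with a log2 fold change of 0.22 ± 0.21 (SE; 95% interval -0.25 to 0.68) that did not pass edgeR's test (adjusted p = 0.982). It was 0.411 without regular replicate 3 and 0.06 without soy replicate 3.

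miR-191-3p, the scarce arm of the miR-191 hairpin, was the only member whose libraries did not overlap between the diets. It had 86, 131 and 50 reads in regular and 189, 227 and 145 reads in soy libraries. Its level was 8.41, 13.09 and 8.00 CPM in regular and 15.37, 22.59 and 14.52 CPM in soy livers. The lowest soy library stood just above the highest regular one, and the exact Poisson intervals of these counts, 12.26 to 17.09 and 10.95 to 15.54 CPM, overlapped. The means were 9.83 ± 2.83 and 17.5 ± 4.43 CPM (SD, n = 3), a 1.78-fold difference with a 95% interval of 0.947 to 3.33. The log2 fold change was 0.83 ± 0.41 (SE) and did not pass edgeR's test (adjusted p = 0.941). Ranges that did not overlap with soy on the higher side were seen for 32 of the 437 microRNAs (7.32%), against 1 of these 4 arms. Its value ranged from 0.657 without soy replicate 2 to 1.162 without regular replicate 2.

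miR-425-3p, the scarce arm of the miR-425 hairpin, had 118, 93 and 12 reads in regular and 43, 101 and 75 reads in soy libraries. Its level was 11.53, 9.30 and 1.92 CPM in regular and 3.50, 10.05 and 7.51 CPM in soy livers. Regular replicate 3, the shallowest library, was the lowest, and its exact Poisson interval of 0.992 to 3.35 CPM lay below that of the other regular libraries, so counting error alone did not span their difference. The means were 7.58 ± 5.03 and 7.02 ± 3.3 CPM (SD, n = 3), and the log2 fold change was -0.12 ± 0.71 (SE; 95% interval -1.7 to 1.46; adjusted p = 0.982 in edgeR). The sign turned when single libraries were left out, from -0.506 without regular replicate 3 to 0.402 without regular replicate 1, and no direction can be given.

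**Figure D2:**
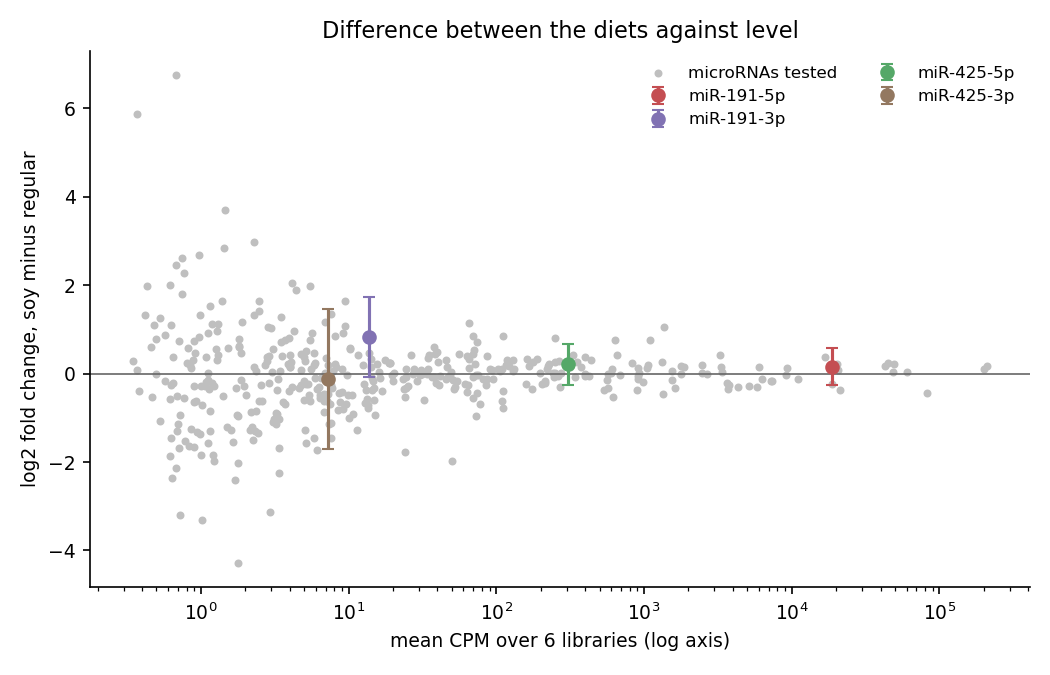
Log2 fold change of soy minus regular (edgeR) against the mean CPM over 6 libraries (log axis) for the 437 microRNAs tested, in grey, with the 4 arms in colour and their 95% intervals as bars. The intervals of all 4 arms include 0, the narrowest around miR-191-5p (-0.25 to 0.57) and the widest around miR-425-3p (-1.7 to 1.46).

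None of the 4 arms was called between the diets, as for the table as a whole. edgeR called 0 of the 437 microRNAs (0%) at an adjusted p under 0.05, with 22 (5.03%) at an unadjusted p under 0.05, and limma-voom called 0. DESeq2 called 2 (0.458%), neither of them a member and both lower in soy, miR-145a-5p (log2 fold change -0.957) and miR-455-3p (-1.969). The paper lists both of these with positive log2 fold changes in soy-fed animals, and it also reports qRT-PCR fold changes for both in that same direction. Every direction given here follows the library labels, and the reason for the opposite signs was not tested. At an unadjusted p under 0.05, edgeR with all libraries and the filter above gave 0 of the 4 arms. Means were higher in soy for 3 of the 4 arms, and for 212 of the 437 microRNAs (48.5%), whose median log2 fold change was -0.016.

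**Figure D3:**
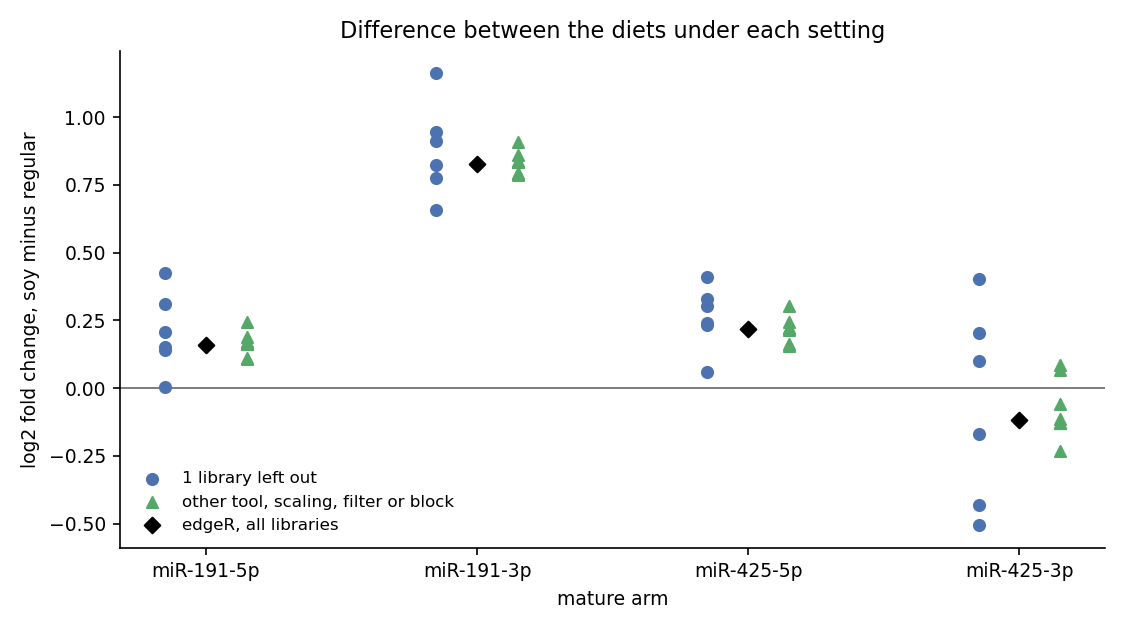
Log2 fold change of soy minus regular for each arm by edgeR with all libraries (diamonds), with 1 library left out (circles) and with another tool, scaling, filter or the replicate block (triangles). miR-191-3p stays between 0.657 and 1.162, miR-191-5p and miR-425-5p stay above 0 but come down to 0.003 and 0.06, and miR-425-3p lies on both sides of 0.

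Both hairpins gave their reads almost wholly to the 5p arm. Over the 6 libraries the 5p arm took 99.926% of the reads of the miR-191 hairpin and 97.586% of those of miR-425. Of the 118 hairpin names with both arms past the filter, the 5p arm led in 67 (56.8%), and the leading arm took a median of 92.83% of the reads. A larger lead than that of miR-191 was measured for 4 of these hairpin names, and a larger lead than that of miR-425 for 40. Left out were names with a single arm past the filter, such as miR-186. Names whose arms are numbered differently were left out too, such as let-7f (let-7f-5p at 59093 and let-7f-1-3p at 8.39 CPM in regular). These counts therefore hold for the 118 names only. The 4 with a larger lead than miR-191 were miR-192, miR-22, miR-143 and miR-10a, named after their values were seen.

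By library, the 3p arm was 0.0389%, 0.0843% and 0.0501% of miR-191 hairpin reads in regular and 0.0643%, 0.133% and 0.0784% in soy livers. Soy replicate 2 was the highest and regular replicate 1 the lowest, and regular replicate 2 stood above 2 soy libraries. The 5p share was 99.942% ± 0.0237 in regular and 99.908% ± 0.0365 in soy (SD, n = 3; two-sided exact permutation p = 0.3, Benjamini-Hochberg 0.7 over 3 such values).

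The miR-425 hairpin varied more between mice of a diet. Its 3p arm was 4.32%, 3.43% and 0.575% of the hairpin's reads in regular and 1.19%, 3.23% and 1.85% in soy livers. Regular replicates 1 and 3 were the extremes, with exact binomial 95% intervals of 3.59% to 5.15% and 0.297% to 1%, so the soy range lay within the regular range. The 5p share was 97.225% ± 1.96 in regular and 97.908% ± 1.04 in soy (SD, n = 3; two-sided exact permutation p = 0.7, Benjamini-Hochberg 0.7). With 3 mice against 3 the smallest p of this test is 0.1.

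**Figure D4:**
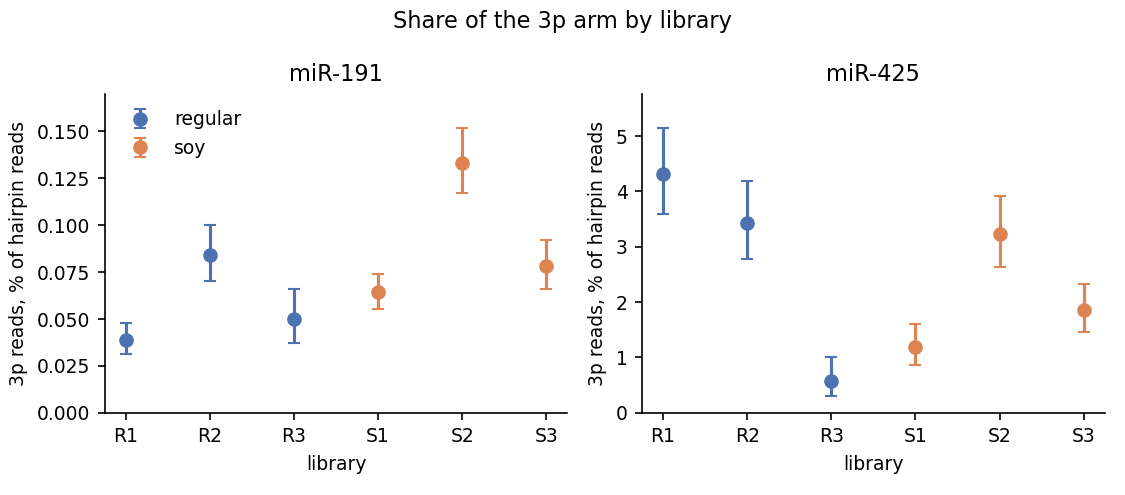
Reads of the 3p arm as a percent of the 5p plus 3p reads of its hairpin in the 3 regular (R1 to R3) and 3 soy (S1 to S3) libraries, with exact binomial 95% intervals. The share spans 0.0389% to 0.133% for miR-191 and 0.575% to 4.32% for miR-425, and the diets overlap for both.

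No relation between the 5p arms of the neighbouring hairpins was detected across the mice. There were 46.5 to 84.5 reads of miR-191-5p for each read of miR-425-5p. The log2 ratio was 6.40, 5.89 and 5.59 in regular and 6.37, 5.81 and 5.54 in soy livers. Each group spanned nearly the same range, and libraries with the same replicate number had close values. Whether such libraries shared a batch was not tested. The means were 5.96 ± 0.413 and 5.91 ± 0.421 (SD, n = 3; two-sided exact permutation p = 0.7, Benjamini-Hochberg 0.7), and this ratio is free of the scaling between libraries.

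Over the 6 libraries, log2 CPM of miR-191-5p and miR-425-5p had a Pearson r of -0.17 (exact permutation p = 0.74) and a Spearman rho of -0.14 (exact permutation p = 0.803). Without regular replicate 1 and soy replicate 1, the libraries farthest from the median of miR-191-5p, r was 0.84 over the other 4, so the value rests on that pair of libraries. Within a diet there were 3 libraries, too few for a correlation of their own, and with the group means subtracted r was -0.431 over the 6 libraries. For the other 5 of the 6 pairs of arms, r ranged from -0.34 (miR-425-5p and miR-425-3p) to 0.35 (miR-191-3p and miR-425-3p), and the Benjamini-Hochberg values of the exact permutation tests were 0.989 for every r and 0.919 for every rho.

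Among the 433 other microRNAs, the patterns closest to that of miR-191-5p over the 6 libraries were those of miR-99b-5p (r = 0.951, mean level 827.0 CPM), miR-15b-5p (r = 0.94, 129 CPM) and miR-183-5p (r = 0.923, 162 CPM), and 6 reached an r above 0.9. For miR-425-5p they were miR-24-1-5p (r = 0.942, 2.28 CPM), miR-125b-1-3p (r = 0.934, 10.2 CPM) and miR-1191b-5p (r = 0.905, 1.82 CPM), arms of few reads. These correlations are a description of 6 libraries that share their scaling, picked as the highest of 433.

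miR-191-5p and miR-425-5p varied between mice of a diet about as much as other microRNAs of high level. The SD of log2 CPM within a diet, taken over both groups, was 0.261 for miR-191-5p and 0.231 for miR-425-5p. Over the 109 microRNAs with a mean level of at least 100 CPM the median was 0.23, and 58.7% had a smaller SD than miR-191-5p and 50.5% a smaller one than miR-425-5p. That set reaches far below the level of miR-191-5p. In the reference, intron and estrogen lists below, these microRNAs at 9170 CPM or more had smaller SDs than miR-191-5p: miR-22-3p (0.0333), miR-27b-3p (0.0951), miR-26a-5p (0.151), miR-16-5p (0.191) and miR-30e-5p (0.221). Only miR-21a-5p (0.305) had a larger one there. Counting error alone gives an SD of 0.00352 for miR-191-5p and 0.027 for miR-425-5p, less than their SDs within a diet. For the 3p arms the SD was 0.368 for miR-191-3p and 1.13 for miR-425-3p, with 0.139 and 0.227 from counting error.

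**Figure D5:**
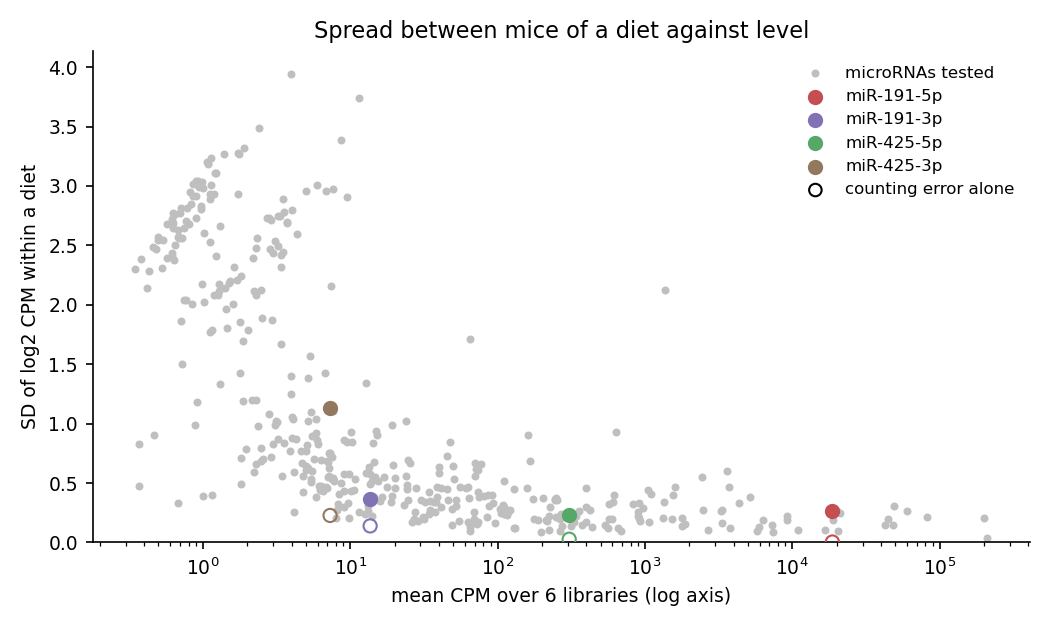
SD of log2 CPM within a diet (both groups together) against the mean CPM over 6 libraries (log axis) for the 437 microRNAs tested, in grey, and the 4 arms as filled points, with the SD that counting error alone gives as open points of the same colour. miR-191-5p (0.261) and miR-425-5p (0.231) lie near the median of microRNAs at 100 CPM or more (0.23), and miR-425-3p (1.13) lies far above its counting error (0.227).

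A list of 18 microRNAs used as references for RT-qPCR, which holds 3 of the members, gives a frame for these values. All 18 passed the filter, 9 were higher and 9 lower in soy, and 0 were called by edgeR. The median log2 fold change was 0.01. Their SD within a diet ranged from 0.106 to 1.13, and miR-425-5p and miR-191-5p ranked 10 and 11 of the 18 from the most even. miR-26b-5p (0.106), miR-103-3p (0.122) and miR-93-5p (0.124) had the smallest values, and miR-425-3p the largest. Of the most abundant on the list, miR-26a-5p had an SD of 0.151 and miR-16-5p one of 0.191, with log2 fold changes of 0.17 ± 0.14 and 0.12 ± 0.16 (SE).

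A list of microRNA clusters taken as intronic, the members among them, showed no call either. For the members the annotations differ on that position, as given above. Of 30 listed arms, 27 passed the filter, with 19 higher and 8 lower in soy, a median log2 fold change of 0.16 against -0.016 over all microRNAs, and 0 called by edgeR. After miR-27b-3p (0.09 ± 0.13 SE), miR-191-5p was the most abundant of them, followed by miR-30e-5p (-0.02 ± 0.17 SE). The members make up 4 of these arms, and the median of the list is the value of miR-191-5p itself.

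The microRNAs linked to the estrogen receptor, among which miR-191-5p and miR-425-5p are counted, had 13 of 15 past the filter, with 8 higher and 5 lower in soy and 0 called by edgeR. Their median log2 fold change was 0.16, against -0.016 over all 437 microRNAs, of which 48.5% were higher in soy. The middle value of this list is that of miR-191-5p itself, so its median is not independent of the members. The most abundant were miR-22-3p (0.16 ± 0.10 SE), miR-21a-5p (0.22 ± 0.19 SE) and miR-26a-5p (0.17 ± 0.14 SE). The lowest values, named after they were seen, were those of miR-193b-3p (-1.27 ± 0.73 SE) and miR-145a-5p (-0.96 ± 0.22 SE, adjusted p = 0.295 in edgeR).

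Hepatocyte microRNAs, the markers of the labelled tissue, summed to 281000 to 351000 per 1e6 reads in every library. Most of that sum was miR-192-5p and miR-148a-3p, while miR-122-5p had a mean level of 23917 CPM in regular and 18493 CPM in soy livers. Of these 5 markers, 2 were higher and 3 lower in soy. Leukocyte markers (6 of 6 in the table) summed to 2140 to 2290 per 1e6 reads in regular and 2710 to 3480 in soy libraries, and endothelial markers (2 of 2) to 15800 to 17400 and 20000 to 20700. Both sums were higher in every soy than in every regular library, as miR-191-3p was, and their part in that difference was not tested. Not every marker of these lists was higher in soy. Of the leukocyte markers 5 were higher, and the 1 that was lower had a log2 fold change of -0.07. For these 6 markers the median was 0.54, against -0.016 for all microRNAs tested, and edgeR called 0 of them. The endothelial markers are arms of the same hairpin, of which miR-126a-5p had a mean level of 14617 CPM in regular and 18885 CPM in soy livers, and miR-126a-3p one of 1781 and 1769 CPM. Mesenchymal (16700 to 23600 and 18200 to 23900) and erythroid markers (793 to 1840 and 1380 to 1410) overlapped between the diets. The mesenchymal sum is mostly miR-143-3p, and of its 4 members 2 were higher and 2 lower in soy, among them miR-145a-5p at 96.6 ± 11.2 CPM in regular and 49.6 ± 4.96 CPM in soy (SD, n = 3). Of the markers of other organs, pancreas markers, mostly miR-375-3p, summed to 8.79 to 70.2 per 1e6 reads in regular and 13.3 to 157 in soy libraries. Muscle markers summed to 4.75 to 7.51 and 3.29 to 11.8, and neural markers to at most 1.92, with miR-124-3p of neurons and miR-206-3p of skeletal muscle at 0 in all libraries.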

How the data were processed

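Small RNA of 6 livers was sequenced (TruSeq libraries, single-end NextSeq reads). The deposited counts are whole reads per mature microRNA, assigned by the authors without normalization. Which aligner, genome build and miRBase release they used is not given in the sources used here. The deposited log2 values were scaled per library by the authors and lack values under 4 reads (0 mismatches with the counts). 0 sample columns were left unused. Libraries held 5727546 to 12762916 reads, and log2 CPM correlated at 0.944 to 0.970 within and 0.950 to 0.972 between groups. Libraries of a diet differed beyond sampling noise (chi-square of 229 or more per degree of freedom). Each library came from 1 mouse. Poisson and binomial intervals cover counting error only, while those of fold changes carry the spread between libraries.

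The 437 microRNAs that reached 4 reads in 3 or more libraries were fitted together by edgeR 4.0.16 (R 4.3.3; quasi-likelihood test, TMM scaling, diet as the only term) with Benjamini-Hochberg adjustment at 0.05. The study names a Deseq analysis, so DESeq2 1.42.0 was an alternative, with limma 3.58.1 (voom, or the log2 values), other scalings, other filters, each library left out and the replicate number as a block. Arm shares and the ratio of the guides were compared by exact permutation over 20 assignments, and correlations over 720 pairings (SciPy 1.17.1). Standard errors were derived from the F statistic, and log2 CPM for correlations and spread used a prior count of 0.5. The edgeR fit was tested on simulated counts, and the other fits were not. The members, lists and tests were chosen with earlier results of these data known. Besides the members, the text names the closest patterns, the neighbours in level, the most abundant list members and microRNAs sharing a seed.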

Additional observations from a re-analysis of the deposited data

How the results depend on the processing

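No arm was called under any of the 14 alternatives run for each, with adjusted p of 0.591 to 0.997 for miR-191-5p, 0.55 to 0.981 for miR-191-3p, 0.59 to 0.997 for miR-425-5p and 0.939 to 0.997 for miR-425-3p. With each library left out, the log2 fold changes ranged from 0.003 to 0.426, 0.657 to 1.162, 0.06 to 0.411 and -0.506 to 0.402. Only miR-425-3p changed sign, to 0.402 without regular replicate 1, 0.1 without regular replicate 2, 0.204 without soy replicate 1, to 0.067 on the deposited log2 values and to 0.087 with the replicate block. The cause was not tested. The number of microRNAs called, 0 in edgeR, was 2 with DESeq2, 8 without a filter and 5 with the replicate block, and 0 with any library left out. The difference in 5p share ranged from -0.0481 to -0.0136 percentage points for miR-191 and from -0.0911 (without regular replicate 1) to 1.78 for miR-425. The log2 ratio of the 5p arms differed by -0.282 to 0.169, turning without regular replicate 1 (0.169) or soy replicate 3 (0.131). With a library left out, the correlation of the 5p arms ranged from -0.497 to 0.0609, the latter without regular replicate 1, and it was -0.431 with the group means subtracted. The share of the 4 arms differed by -0.0378 to 0.318 percentage points with a library left out. Without the reads of the 2 most abundant microRNAs the total is smaller. On that total the mean shares were 3.06% in regular and 3.43% in soy, 0.371 points apart, which is not on the same scale.

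Over all filtered microRNAs, the replicate numbers of the labels showed no pairing of the libraries. Deviations of same-numbered libraries correlated at -0.009, -0.105 and -0.001, and 0 of 3 regular libraries correlated best with their own number. By CPM, the replicates nevertheless stood in the same order in both diets for miR-191-5p, miR-191-3p and miR-425-5p, and in another order for miR-425-3p. Whether same-numbered libraries shared a batch was not tested. With the replicate block the log2 fold changes were 0.162, 0.838, 0.215 and 0.087 for miR-191-5p, miR-191-3p, miR-425-5p and miR-425-3p, and the differences in 5p share and in the log2 ratio kept their values of -0.0342, 0.683 and -0.0526, with exact sign-flip p of 0.25, 0.75 and 0.25, of which 0.25 is the smallest that 3 pairs allow. The 3p arms had 12 to 227 reads per library, and counting error gave the smaller part of their SD of log2 CPM (0.139 of 0.368 for miR-191-3p and 0.227 of 1.13 for miR-425-3p).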
